A study of Mus musculus with 4 samples.

Results

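The genes described here are 6 of the suppressor of cytokine signalling (SOCS) family, Cish, Socs1, Socs2, Socs3, Socs5 and Socs6, and the 3 PIM kinases, Pim1, Pim2 and Pim3. They were chosen by name, and among the probe sets annotated to a gene alone, the one with the highest mean level was read. All 9 were found, of 22180 genes with such a probe set, and all 9 passed the level filter, a log2 value of 6.61 (the median of the whole table) on at least 1 array.

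Cytokines bind receptors whose Janus kinases (Jaks) phosphorylate STAT transcription factors, and STATs switch on genes that include the SOCS and PIM genes. SOCS proteins bind the receptor or the kinase through an SH2 domain, and their SOCS box recruits a ubiquitin ligase, so that the pathway is damped by its own product. PIM proteins are serine/threonine kinases that need no activating phosphorylation, so their activity follows their amount, and they promote survival, translation and cell growth. In T cells CIS (the product of Cish), SOCS1, SOCS2 and SOCS3 are the members known as induced by cytokines.

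Each of 4 CD4+ populations from C57BL/6 mice aged 8 weeks was hybridised to 1 Affymetrix array. The array labelled naive holds CD4+CD62Lhi cells of wild-type spleen, and cTh1 holds such wild-type spleen cells cultured for 5 days as Th1 cells. Their culture contained beads against CD3 and CD28, 2 ng/ml of IL-12, 50 U/ml of IL-2 and anti-IL-4 antibody. TT naive and nTh1 are CD4+CD62L+ thymocytes of CIITAtg mice, without and with the chemokine receptor CXCR3. CIITA is the master regulator of MHC class II genes. The sources used here do not name the promoter of the transgene or how many animals gave each sample. With 1 array a group there is no replicate and no p-value. The only error at hand is how far the probe sets of a gene disagree on the log2 difference. This SD ran from 0.257 (nTh1 against TT naive) to 0.481 (nTh1 against cTh1) and holds no variation from animal, sort or array.

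The summed level of 6 CD4 T cell markers lay between 15.13 and 15.26 (log2) on the 4 arrays. B cell markers summed to 11.76 in cTh1 against 8.97 to 9.84 elsewhere, CD8 chains to 11.54 in cTh1 against 8.75 to 9.89, and myeloid markers to 11.66 in nTh1 against 10.41 to 10.88. NK cell markers summed to 10.08 on the array labelled naive and to 8.33 in TT naive. Of these, Ncr1 and Klrb1c were below the level filter on all 4 arrays. The sums rest mainly on Fcer1g (9.57 and 7.09) and Tyrobp (7.66 and 6.85), so they do not show NK cells. The array labelled naive goes against its label: Tbx21, the Th1 factor T-bet, stood at 9.81 there and 7.11 in TT naive, and Zbtb16, the factor PLZF of innate-like T cells, at 12.23 and 9.36. Whether labels were exchanged was not tested, and any direction drawn from that array holds only if its label does. For this reason the cTh1 values are also given against TT naive. In each comparison of cTh1 with TT naive, tissue, genotype and culture differ together and cannot be told apart. Y-linked transcripts summed to 9.89 for TT naive and 9.73 for the array labelled naive, against 6.32 for cTh1 and 6.43 for nTh1. In bulk RNA fewer cells of a type and less RNA per cell cannot be told apart.

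**Figure D1:**
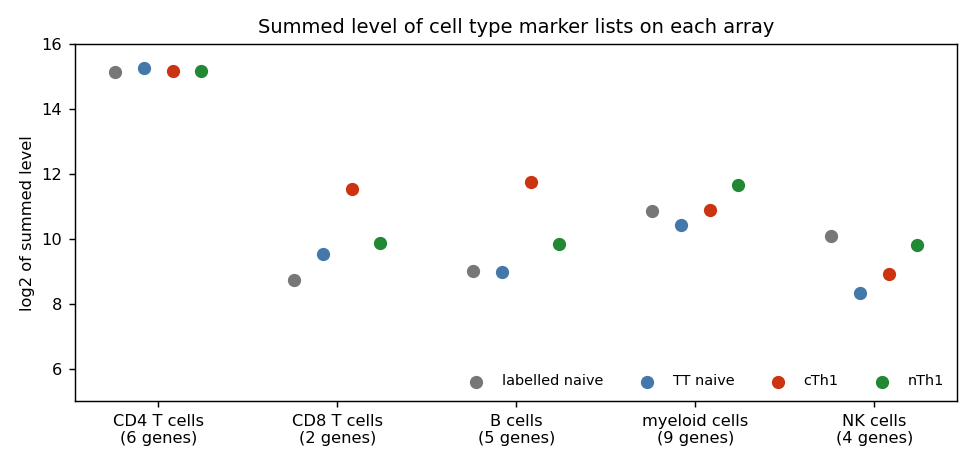
The log2 of the summed linear level (vertical axis) of 5 cell type marker lists (horizontal axis, with the number of genes) is plotted for each array, 1 point per array. The CD4 points lie within 15.13 to 15.26, while the B cell and CD8 points of cTh1 and the myeloid point of nTh1 are the highest of their lists.

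The members fell into a group that was high in cTh1 and a group that was not. Cish, Socs1, Socs3, Pim1 and Pim2 were each at least 2-fold higher in cTh1 than on every one of the other 3 arrays. That is 5 of 9 members, where 3.54% of 13238 genes above the level filter on any array had the same pattern. The second probe sets of Cish, Socs3 and Pim1 were highest in cTh1 too, but not by 2-fold over each array. Their differences over the array labelled naive were 0.73, 0.62 and 0.40. Counting any amount, 6 of 9 were highest in cTh1, where 34.2% of genes were, and 4 of 9 (Cish, Socs2, Socs5 and Pim1) were lowest in nTh1, where 34.5% were. Socs2 was highest in cTh1 by under 2-fold on the probe set used, and Socs5, Socs6 and Pim3 were not highest there.

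**Figure D2:**
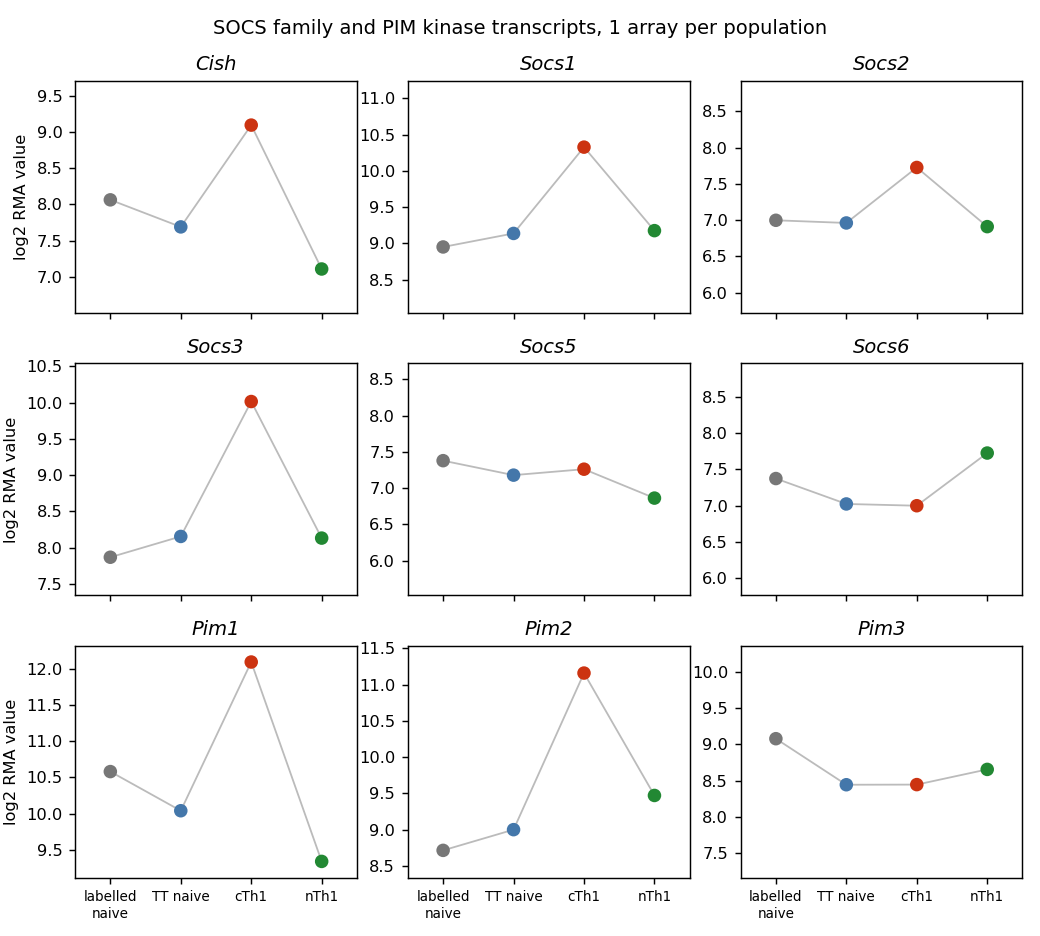
The log2 RMA value (vertical axis, the same span of 3.2 in each panel) of each of the 9 genes is plotted on the 4 arrays (horizontal axis), 1 point per array, with lines only to guide the eye. Cish, Socs1, Socs3, Pim1 and Pim2 peak in cTh1, and Socs5, Socs6 and Pim3 do not.

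The sequence upstream of the 5 genes that peaked in cTh1 is shown because STAT factors are the classical regulators of this family. RefSeq windows of build GRCm38.p6 (250 bases before to 50 after the annotated start) were read for 6 of the 9 members. That made 7 windows, since Pim1 has a pair of start sites. Socs2, Socs5 and Socs6 have no window shown. The stretches below run 5′ to 3′ on the strand of the gene, and capitals mark TTCNNNGAA, the palindromic core bound by STAT dimers, or GAAA and GAAA set 2 bases apart, the core bound by interferon regulatory factors. The second motif was added after the Socs1 sequence had been seen, and a wider form of the first, TTC and GAA set 4 bases apart, was searched too. The Cish stretch is chr9:107296479-107296678 on the plus strand (-180 to +20 of the start), Socs3 is chr11:117969367-117969566 and Socs1 is chr16:10785537-10785736, both on the minus strand (-200 to -1). Pim1 is chr17:29490635-29490784 and Pim2 is chrX:7878156-7878305, both on the plus strand (-150 to -1 of the start, the first listed one for Pim1).
Cish: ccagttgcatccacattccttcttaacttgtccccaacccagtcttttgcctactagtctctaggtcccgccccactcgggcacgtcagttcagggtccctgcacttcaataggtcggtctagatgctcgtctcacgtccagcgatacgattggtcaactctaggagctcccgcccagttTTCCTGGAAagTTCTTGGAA
Socs3: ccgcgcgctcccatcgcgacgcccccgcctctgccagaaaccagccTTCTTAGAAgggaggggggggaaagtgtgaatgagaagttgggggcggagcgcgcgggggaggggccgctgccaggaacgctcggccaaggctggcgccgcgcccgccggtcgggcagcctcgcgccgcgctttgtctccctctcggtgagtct
Socs1: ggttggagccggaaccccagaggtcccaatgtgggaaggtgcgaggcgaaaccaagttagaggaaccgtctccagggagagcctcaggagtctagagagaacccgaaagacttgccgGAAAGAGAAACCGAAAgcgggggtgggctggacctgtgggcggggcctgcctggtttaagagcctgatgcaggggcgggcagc
Pim1: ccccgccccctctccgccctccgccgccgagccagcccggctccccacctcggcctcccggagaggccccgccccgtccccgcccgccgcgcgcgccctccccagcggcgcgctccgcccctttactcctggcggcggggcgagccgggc
Pim2: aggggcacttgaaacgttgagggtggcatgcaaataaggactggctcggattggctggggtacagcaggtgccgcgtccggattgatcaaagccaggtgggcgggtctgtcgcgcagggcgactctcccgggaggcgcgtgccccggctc

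Cish held 2 matches to TTCNNNGAA, TTCCTGGAA at +1 to +9 and TTCTTGGAA at +12 to +20 of the annotated start, and Socs3 held 1, TTCTTAGAA at -154 to -146. Of 32851 windows of 300 bases, 8.3% held at least 1 such match on either strand and 0.457% held at least 2. Socs1 held 2 overlapping matches to the GAAA pair, at -83 to -74 and -77 to -68, and 3.44% of all windows held at least 1. The wider form, found in 6.95% of windows, was in none of the 7 member windows read, and those of Pim1, Pim2 and Pim3 held none of the 3 motifs. A match is a description of letters and not a shown binding site, and a window without one says nothing of sites elsewhere.

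Among the SOCS genes, Cish encodes CIS, which is induced by IL-2 through STAT5 and restrains IL-2 and T cell receptor signals. Its level was 8.06 for the array labelled naive, 7.69 for the TT naive array, 9.09 for the cTh1 array and 7.11 for the nTh1 array. It was thus highest in cTh1 and lowest in nTh1, with TT naive below the array labelled naive by 0.37, a gap within 2 probe set SDs. The difference of cTh1 was 1.03 (2.04-fold) against the array labelled naive, 1.40 against TT naive, and nTh1 lay below cTh1 by 3.96-fold. The second Cish probe set kept this order, from 6.76 in nTh1 to 7.81 in cTh1, with a difference of 0.73 for cTh1 over the array labelled naive, under 2-fold.

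Socs1, the inhibitor of Jak kinases downstream of interferons and IL-2 family cytokines, stood at 8.95 for the array labelled naive, 9.14 for the TT naive array, 10.33 for the cTh1 array and 9.17 for the nTh1 array. Only cTh1 stood apart: the other 3 arrays lay within 0.23 of each other. Its differences were 1.38 for cTh1 over the array labelled naive, 1.19 for cTh1 over TT naive and -1.15 for nTh1 against cTh1, each over 2 probe set SDs.

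Socs3 binds the IL-6 receptor chain gp130 and the IL-12 receptor chain beta 2, and limits STAT3 and STAT4. It was at 7.87 for the array labelled naive, 8.15 for the TT naive array, 10.01 for the cTh1 array and 8.13 for the nTh1 array. The cTh1 array was above the 3 others, which lay close together, and it was higher than the array labelled naive by 4.43-fold and than TT naive by 3.63-fold. Only 134 of 12835 genes had a larger positive difference than Socs3 in cTh1 against the array labelled naive. The second Socs3 probe set, at 5.90 to 6.79, was also highest in cTh1, by 0.62 over the array labelled naive.

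Socs2, a STAT5-induced regulator best known for damping growth hormone signals, gave different answers on its 2 probe sets. The probe set used (17244486) read 6.999 for the array labelled naive, 6.96 for the TT naive array, 7.73 for the cTh1 array and 6.91 for the nTh1 array. The other (17274184) read 6.40, 6.29, 10.35 and 4.44 on the same arrays. Both put cTh1 highest and nTh1 lowest, but the difference of cTh1 over the array labelled naive was 0.73 on the first and 3.95 on the second, and that of nTh1 against cTh1 was -0.82 and -5.91. On the second probe set Socs2 would be the member with the largest difference in both comparisons. Its identifier stands between those of Gm16497 and Gm5432, and its 6 nearest named neighbours in identifier order are genes of chromosome 12, while Socs2 and the neighbours of the first probe set are on chromosome 10. Which sequence the second probe set reads could not be settled here, so no call on Socs2 is made from it.

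**Figure D3:**
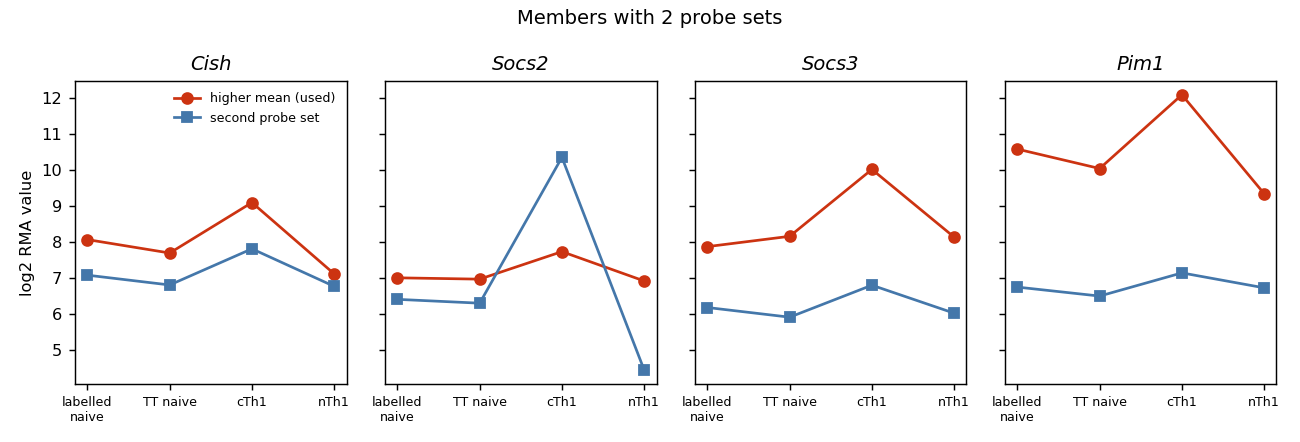
Log2 RMA values (vertical axis) of both probe sets of Cish, Socs2, Socs3 and Pim1 are plotted on the 4 arrays (horizontal axis), with circles for the probe set used and squares for the other. All 8 lines are highest in cTh1, and the second Socs2 line spans 4.44 to 10.35 where the first spans 6.91 to 7.73.

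Socs5 and Socs6 belong to the branch of the family with a long N-terminal region, which is less tied to cytokine induction. Socs5, linked to IL-4 and EGF receptor signals, was at 7.38 for the array labelled naive, 7.18 for the TT naive array, 7.26 for the cTh1 array and 6.86 for the nTh1 array. Socs6, which binds receptor tyrosine kinases such as KIT, was at 7.37, 7.02, 6.999 and 7.73 on the same arrays. Socs5 was lowest and Socs6 highest in nTh1, and no neighbouring levels of either gene were over 2 probe set SDs apart. Against TT naive, Socs6 in nTh1 was higher by 0.70 (1.63-fold), the highest difference among the 9 members in that comparison and over 2 probe set SDs, with 356 of 12435 genes further up.

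The remaining genes of this branch, Socs4 and Socs7, are not members but complete the family. Socs4 lay between 8.39 and 8.90 and Socs7 between 7.92 and 8.46 on the 4 arrays, and neither reached 2-fold in any of the 6 comparisons. Among the 8 SOCS genes, the 3 at 2-fold in cTh1 on the probe sets used were thus Cish, Socs1 and Socs3.

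The PIM kinases differed among themselves. Pim1, a STAT5 and STAT3 target that supports survival and cell cycle entry, stood at 10.58 for the array labelled naive, 10.04 for the TT naive array, 12.09 for the cTh1 array and 9.34 for the nTh1 array. The order was that of Cish, with cTh1 highest and nTh1 lowest, and its range of 2.75 was the widest of the 9 members on the probe sets used. Pim1 in cTh1 was higher than on the array labelled naive by 2.85-fold and than in TT naive by 4.14-fold, and nTh1 lay below cTh1 by 6.73-fold. Only 91 of 12841 genes had a lower difference than Pim1 in nTh1 against cTh1. The second Pim1 probe set was flatter, at 6.74, 6.49, 7.14 and 6.72, and differed by at most 0.64 between any pair of arrays.

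Pim2, which sustains growth and survival of T cells alongside the mTOR pathway, stood at 8.71 for the array labelled naive, 8.998 for the TT naive array, 11.16 for the cTh1 array and 9.47 for the nTh1 array. Unlike Cish and Pim1 it was second highest in nTh1. The cTh1 array was higher than the array labelled naive by 5.45-fold, the largest difference of a member in that comparison, with 100 of 12835 genes above it. It was higher than TT naive by 4.47-fold, and nTh1 lay below cTh1 by 1.69. Pim2 is on the X chromosome, and cTh1 and nTh1, the arrays with more of it, are also those with low Y-linked transcripts, whose part in the result was not tested.

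Pim3, the third kinase, was at 9.08 for the array labelled naive, 8.44 for the TT naive array, 8.45 for the cTh1 array and 8.66 for the nTh1 array. It was highest on the array labelled naive, and TT naive and cTh1 differed by 0.002. None of its 6 pairwise differences reached 2-fold, and the only one over 2 probe set SDs was -0.64 for TT naive against the array labelled naive.

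The comparison of cTh1 with the array labelled naive is by its labels one of Th1 culture with its starting cells. The 3 measured Y-linked genes were also lower in cTh1, with a median difference of -3.45, so the arrays differ in their animals too, and culture and animals cannot be told apart. In cTh1, 5 of 9 members reached 2-fold above and 0 below, where 5.13% of 12835 genes were higher and 3.35% lower. The 5 were Cish, Socs1, Socs3, Pim1 and Pim2, and the other 4 lay between -0.63 (Pim3) and 0.73 (Socs2). The median difference over the 9 was 1.03, and over all genes tested it was -0.02. With the mean of all probe sets of a gene, Cish and Pim1 were under 2-fold and Socs2 above it, so that 4 members were called. With TT naive as the baseline the same 5 members reached 2-fold above and 0 below, where 7.24% of 12728 genes were higher and 3.02% lower, and the median was 1.19. Both comparisons use the cTh1 array. Between cTh1 and TT naive, tissue, genotype and culture differ together. The 3 measured Y-linked genes were lower in cTh1 there too, with a median of -3.58. These differences cannot be told apart. B cell and CD8 markers were higher in cTh1 too, with 5 of 5 B cell markers above the level filter there and 3 of 5 in TT naive, Cd79a at 10.29 in cTh1 against 6.50 in TT naive and Cd8a at 10.31 against 6.22, and their part in the SOCS and PIM values was not tested.

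**Figure D4:**
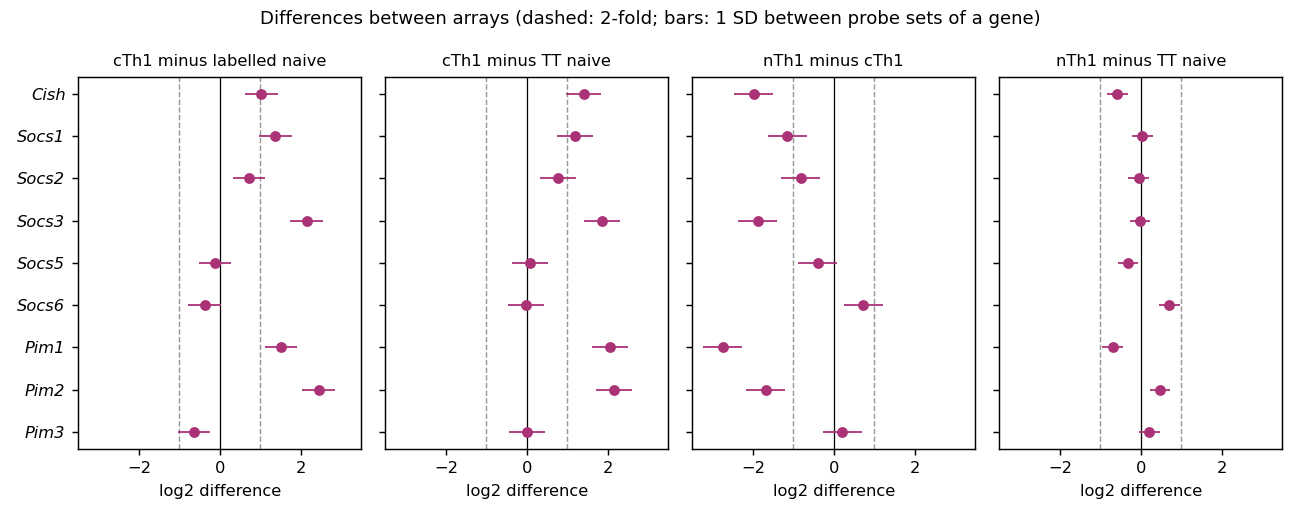
Log2 differences (horizontal axis) of the 9 genes (vertical axis) are plotted for 4 comparisons, with dashed lines at 2-fold and bars of 1 SD between probe sets of a gene in that comparison. Cish, Socs1, Socs3, Pim1 and Pim2 lie beyond 2-fold in the 3 comparisons that involve cTh1, and no gene does in nTh1 against TT naive.

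The series title sets nTh1 beside cTh1. In nTh1, 5 of 9 members were at least 2-fold lower than in cTh1 and 0 higher, where 8.3% of 12841 genes were lower and 3.46% higher. They were Pim1 at -2.75, Cish at -1.98, Socs3 at -1.88, Pim2 at -1.69 and Socs1 at -1.15. Of the others Socs2 was at -0.82, Socs5 at -0.40, Pim3 at 0.21 and Socs6 at 0.73. On their second probe sets Cish was at -1.04, Socs3 at -0.78 and Pim1 at -0.42, so that Socs3 and Pim1 were under 2-fold there. The median was -1.15 over the members and -0.08 over all genes tested. Tissue, genotype and culture differ together between these arrays and cannot be told apart. Markers of other cells differed as well, with Cd8a at -3.88 and 3 of 5 B cell markers at least 2-fold lower in nTh1, led by Cd79a at -2.65, and with 3 of 9 myeloid markers higher, among them Lyz2 at 2.27, and 1 lower. Their part in the member values was not tested.

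Between the thymic populations, nTh1 and TT naive, none of the 9 members reached 2-fold. Since 1.41% of 12435 genes were higher and 1.09% lower, a count of 0 among 9 is near the background and is no result about the members. Their median of -0.02 stood beside -0.05 for all genes tested. The differences over 2 probe set SDs were Pim1 at -0.70, with 369 genes lower, Cish at -0.58, with 576 lower, and Socs6 at 0.70, with 356 higher. Myeloid markers were higher in nTh1 in the same comparison, 5 of 9 by 2-fold or more, with 9 of 9 above the filter in nTh1 and 5 of 9 in TT naive, and Lyz2 at 9.44 against 6.05, and their part was not tested. The 3 measured Y-linked genes were lower in nTh1 than in TT naive, with a median difference of -3.39. The thymic arrays thus differ in their animals too, and sort and animals cannot be told apart. Against the array labelled naive, nTh1 had 1 member at least 2-fold lower, Pim1 at -1.24. In that comparison 4.43% of 12754 genes were lower and 1.93% higher. Cish was just short of 2-fold at -0.95 and Pim2 was at 0.76. TT naive against the array labelled naive had 0 of 9 members at 2-fold, where 0.795% of 12582 genes were higher and 2.59% lower, with Pim3 at -0.64 and Pim1 at -0.54 the furthest.

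Cish and Pim1 were lower in nTh1 than in TT naive and higher in cTh1 than on the array labelled naive, each by at least 1 probe set SD. That is 2 of 9 members, where 3.6% of 13238 genes had this pattern, and 0 of 9 had the reverse, as 2.08% of genes did. The second probe sets did not keep it, with nTh1 against TT naive at -0.04 for Cish and 0.23 for Pim1, and with the mean of probe sets Pim1 was at -0.23, under 1 SD.

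The order of the arrays could be read only in part. Each gene has 3 gaps between neighbouring levels, and 7 of the 27 gaps were over 2 probe set SDs. Of these, 5 separate cTh1 from the next array, for Cish, Socs1, Socs3, Pim1 and Pim2, and the other two separate nTh1 from TT naive for Cish and Pim1. The levels of Socs1, Socs3 and Pim2 on the 3 arrays other than cTh1, and all levels of Socs2, Socs5, Socs6 and Pim3 in their order, had neighbours within 2 probe set SDs.

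The upstream part of the pathway was read from lists of receptors and transducers. Il2ra, the alpha chain that makes the IL-2 receptor high in affinity, was at 9.04 for the array labelled naive, 9.66 for the TT naive array, 12.52 for the cTh1 array and 10.08 for the nTh1 array, so that cTh1 was highest as for the 5 members. Of 7 measured receptors of the IL-2 and common gamma family, 3 were at least 2-fold higher in cTh1 than in TT naive and 0 lower: Il2ra, the shared chain Il2rb at 1.68 and Il15ra at 1.17. Of all genes tested, 7.24% were higher and 3.02% lower. In nTh1 over TT naive, 2 of 7 were higher, Il15ra at 1.09 and Il2rb at 1.04, where 1.41% of all genes were. Among 13 other cytokine receptors above the filter, 4 were higher in cTh1 than in TT naive and 2 lower, beside the same 7.24% and 3.02%, led by the IL-12 receptor chains Il12rb2 at 5.41 and Il12rb1 at 2.53.

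The Jaks and STATs themselves were 3 and 6 measured genes. Jak1, Jak2 and Tyk2 reached 2-fold in none of the 6 comparisons. Over all genes tested the share at 2-fold ran from 0.795% to 8.3% per direction and comparison. A count of 0 among 3 is near that and is no result about the Jaks. Stat5a lay between 9.22 and 9.39 and Stat5b between 11.40 and 11.55 on the 4 arrays. Of 6 STATs only Stat4, which carries the IL-12 signal, reached 2-fold. Stat4 was higher than in TT naive by 1.52 in nTh1 and 1.43 in cTh1, where 1.41% and 7.24% of all genes were. It was higher in nTh1 than on the array labelled naive by 1.06, where 1.93% of all genes were. Jak3 and Il2rg were not analysed here, as no probe set named them alone.

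Other brakes on cytokine and growth factor signals were read from a list of 19. Of these regulators (phosphatases, PIAS proteins, CBL ligases, Sprouty and Spred proteins), 0 were at 2-fold in cTh1 against TT naive. In nTh1 against cTh1 the count was also 0. Of all genes tested, 7.24% were higher and 3.02% lower in the former, and 3.46% and 8.3% in the latter. Counts of 0 among 19 are near the background and are no result about these genes. Against the array labelled naive, cTh1 had 1 lower, Spry2, a Sprouty inhibitor of the MAP kinase path, at -1.74. There 3.35% of all genes were lower. Spry2 was at 8.86 for the array labelled naive and 6.25 to 7.12 elsewhere. TT naive against that array had 2 of 19 lower, Spry2 at -2.61 and Dusp5 at -1.35, where 2.59% of all genes were. For nTh1 against that array 1 was lower, Spry2 at -1.86, where 4.43% of all genes were. In nTh1 over TT naive 1 of 19 was higher, the ERK phosphatase Dusp5 at 1.13, where 1.41% of all genes were. The ligase partners that the SOCS box recruits were read as elongins B and C (Elob and Eloc), Cul5, Cul2 and Rnf7. Of these 5, 1 was at 2-fold in 1 of the 6 comparisons, Eloc at -1.003 in cTh1 against the array labelled naive. Of all genes tested, 3.35% were lower there.

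Of 16 genes for substrates and partners of PIM kinases, 3 were at least 2-fold higher in cTh1 than in TT naive and 0 lower. Of all genes tested, 7.24% were higher and 3.02% lower. The 3 were Cdkn1a, the cell cycle inhibitor p21, at 5.50, Eif4ebp1, a repressor of translation, at 2.74, and the phosphatase Cdc25c at 2.38. The same 3 were lower in nTh1 than in cTh1, with Cdkn1a at -4.74, Cdc25c at -2.35 and Eif4ebp1 at a level of 8.36 against 11.36. Bad, the death promoter inactivated by PIM phosphorylation, lay between 7.11 and 7.26, and Myc, which PIM kinases stabilise, between 10.14 and 11.07. The median of the list for cTh1 over TT naive was 0.17, beside 0.03 for all genes tested. These are transcript levels, and phosphorylation by PIM kinases was not measured.

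Known STAT5 targets were read from a list of 20. Of these, 10 stood 2-fold or more above TT naive in cTh1 and 0 below, where 7.24% and 3.02% of all genes tested were, with a median of 1.02. In nTh1 against cTh1, 11 were lower, where 8.3% of all genes were, with a median of -1.37. The list holds Th1 effector genes, and the 4 largest differences over TT naive were Gzmb at 6.90, Il12rb2 at 5.41, Ifng at 5.31 and Il2ra at 2.85. The survival genes in it did not reach 2-fold in that comparison: Bcl2 was at 0.21, Mcl1 at 0.03 and Bcl2l1 at 0.34. In nTh1 against TT naive 3 of 19 were higher and 2 lower, where 1.41% and 1.09% of all genes were, with a median of 0.12. Irf1, whose product binds the GAAA pair, read 10.06, 10.21, 10.85 and 10.10 in the array order used above, and so was highest in cTh1 by under 2-fold.

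**Figure D5:**
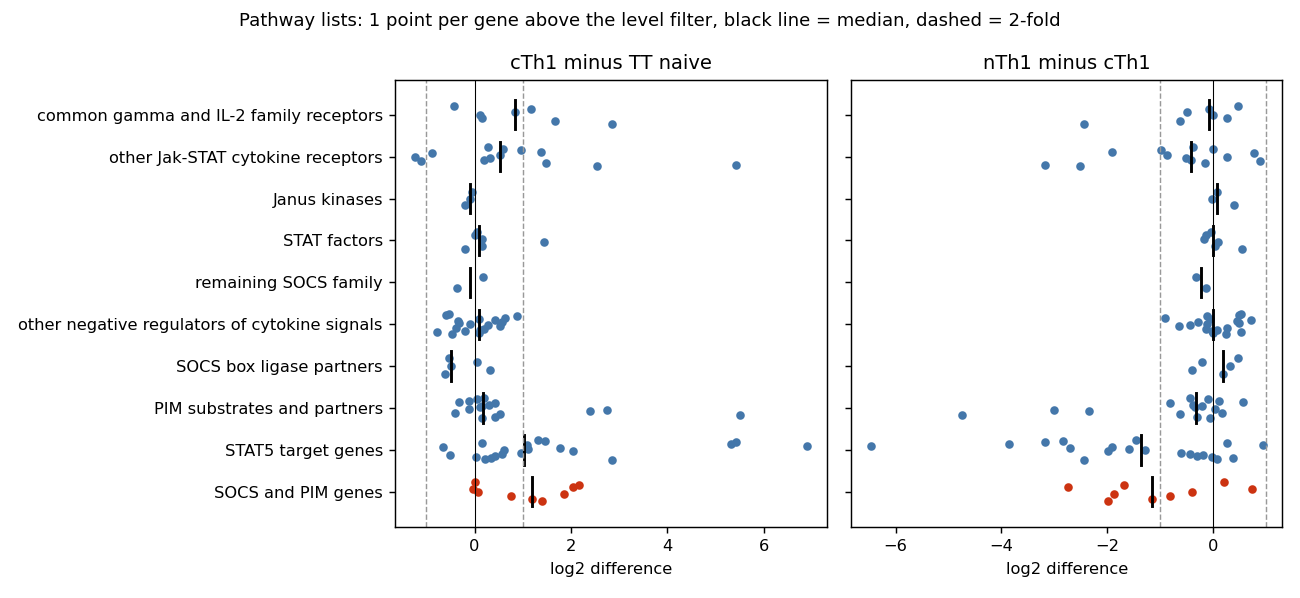
Log2 differences (horizontal axis) of genes above the level filter are plotted by pathway list (vertical axis) for cTh1 over TT naive and nTh1 over cTh1, 1 point per gene, with the median as a black line and 2-fold dashed. The STAT5 targets and the 9 SOCS and PIM genes have medians of 1.02 and 1.19 in the first panel, and the Jaks, STATs and other brakes have medians of -0.09, 0.10 and 0.08.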

How the data were processed

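Total RNA of 4 samples was hybridised to 1 Affymetrix array each. The authors deposited log2 values, which the submitters' processing notes credit to RMA and Affymetrix Expression Console 1.3.1. The sources used here do not state the summary level or annotation version. The table held 41345 probe sets with 0 missing values, and 0 columns stayed unmatched to samples. By the platform annotation 23521 probe sets had 1 gene symbol, 1814 several and 16010 none, and only the first were used. RMA forces the arrays to a near common distribution, so a difference is relative to the other probe sets of that array.

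Per gene the probe set with the highest mean was taken. Each difference subtracts one array's log2 value from the other's, and it was counted at 2-fold among genes with either array at or above 6.61. The members and the lists were chosen with earlier results of these data known, so nothing here is independent support. All 9 members are named, from each list at most the 4 genes with the largest difference at 2-fold per comparison, and for each member with a range of at least 1 the 3 genes of most similar profile, with flat and low genes named for contrast after their values were seen. The scripts were tested on simulated data. Promoter windows came from RefSeq (GRCm38.p6), and tools were Python 3.11.15, numpy 2.4.6, pandas 2.3.3, statsmodels 0.14.6 and matplotlib 3.10.9.

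The alternatives tried were omission of the level filter, a stricter filter (75th percentile), arrays centred on their medians, removal of a loess trend (span 0.3), the mean of all probe sets, the probe set with the highest single value, and thresholds of 1.5-fold and 3-fold. Precision is limited by the number of arrays.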

Additional observations from a re-analysis of the deposited data

Results flagged for a closer look

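Cish and Pim1 differed in opposite directions in the thymic and the splenic contrast, which share no array. Cish differed by -0.58 in nTh1 against TT naive and by 1.03 in cTh1 against the array labelled naive. Pim1 differed by -0.70 and 1.51 in the same contrasts. Each value is over 1 probe set SD of its comparison, and 3.6% of 13238 genes above the level filter differed in the same opposite way by that rule. The difference between the contrasts was not tested, since each group has 1 array. On the second probe sets the opposite move was not kept: Cish was at -0.04 and Pim1 at 0.23 in nTh1 against TT naive. It also rests on the array labelled naive, which goes against its label. Y-linked genes differed within both contrasts, at medians of -3.39 (thymic) and -3.45 (splenic), and their part was not tested.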

How the results depend on the processing

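The 6 counts of members at 2-fold stayed within 1.5 times their value without a level filter, with a filter at the 75th percentile and after removal of a loess trend. Centring, which shifts nTh1 against the array labelled naive by 0.134 and against cTh1 by 0.180, raised the count for nTh1 against the array labelled naive from 1 to 2, adding Cish. At 1.5-fold the counts were 2 for nTh1 against TT naive (Socs6 higher, Pim1 lower), 1 for TT naive against the array labelled naive (Pim3) and 3 for nTh1 against the array labelled naive. At 3-fold they were 2 for cTh1 against the array labelled naive (Socs3 and Pim2), 3 for cTh1 against TT naive (Socs3, Pim1 and Pim2) and 0 for nTh1 against the array labelled naive. Over all genes, the 2-fold counts lay within 1.5 times of their value except with the filter at the 75th percentile for nTh1 against TT naive (197 in place of 311) and TT naive against the array labelled naive (278 in place of 426), and at the other fold thresholds, where they ran from 1047 to 3580 (1.5-fold) and from 94 to 587 (3-fold). With the mean of all probe sets, cTh1 against the array labelled naive had 4 members at 2-fold, Socs1, Socs2, Socs3 and Pim2, without Cish and Pim1, and nTh1 against the array labelled naive had Socs2 in place of Pim1. With the probe set of the highest single value, Socs2 joined the other 5 in the 3 comparisons that involve cTh1, and it fell below the level filter in the other 3. No member at 2-fold changed sign under any of the alternatives run. List medians, taken over all measured members, kept within the probe set SD in 67 of 72 cases with members above the level filter only and in 65 of 72 with the stricter filter. No paired analysis was possible because each group has 1 array.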

Other observations

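Transcripts of cytokines that induce SOCS genes were above the level filter for 8 of 16 genes in cTh1 against TT naive. Of these 8, 3 were at least 2-fold higher in cTh1 (Ifng, Il10 and Lif) and 2 lower (Il21 and Il4). Of all genes tested, 7.24% were higher and 3.02% lower. Il10 was at 8.28 in cTh1 and between 4.77 and 5.41 elsewhere, and Ifng at 11.19 in cTh1, 8.80 on the array labelled naive, 7.34 in nTh1 and 5.88 in TT naive. Both were thus highest in cTh1, as were Cish, Socs1, Socs3, Pim1 and Pim2. Il21 went another way, at 8.99 in TT naive, 8.53 on the array labelled naive, 7.13 in cTh1 and 6.44 in nTh1. Il4 was lowest in cTh1 at 6.04, with 6.48 in nTh1, 7.39 in TT naive and 8.99 on the array labelled naive. Il2 was between 4.55 and 5.46 on all 4 arrays, below the level filter, and so was Il6, between 3.24 and 3.55.

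Genes that follow a recent T cell receptor signal were read from a list of 13. Of these, 0 were at least 2-fold higher in cTh1 than in TT naive and 5 were lower, where 7.24% and 3.02% of all genes were, with a median of -0.69. A count of 0 higher among 13 is near the background. Egr1, at 10.44 in cTh1 and 9.39 to 10.07 elsewhere, and Ier2, at 9.22 and 7.97 to 8.96, were highest in cTh1 by under 2-fold over TT naive. The nuclear receptors Nr4a1 and Nr4a3 were at -1.73 and -1.47, and Dusp2, a phosphatase of the ERK kinases, at -1.37.

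The genes whose profiles over the 4 arrays lay closest to those of the members with a range of at least 1 were listed among 12054 other genes, by the root mean square distance after each gene's own mean was subtracted. They were Ddt, H4c17 and Trim59 for Cish (distances of 0.051 to 0.061), Wdr54, Muc1 and Pros1 for Socs1 (0.036 to 0.041), and Pygl, Ltb4r1 and Rcn1 for Socs3 (0.025 to 0.086). For Pim1 they were Pglyrp1, Tbc1d19 and Cdkn3 (0.102 to 0.130), and for Pim2 Rgs11, Ebf1 and Dennd5a (0.087 to 0.117). Ebf1, a B cell factor, was at 8.24 in cTh1 and 5.89 in TT naive, as B cell markers were also highest in cTh1, and their part in the likeness was not tested. With 4 arrays such likeness is a description only.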
